A study of Homo sapiens with 8 samples.

Results

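The genes described here are those of glycolysis and of glucose, lactate and pyruvate transport, a set of 35 symbols listed by name. The set was chosen with earlier results of these data known. A gene counted as a member when its symbol had a row in the authors' deposited gene tables, and 34 of the 35 did, out of 18937 genes in those tables. The 1 symbol without a row was SLC2A3, a glucose transporter best known from neurons, whose summed estimated reads were 3 and 3 in the ICG-001 libraries, 1 and 2 with CWP232228, 0 and 0 with YB-0158, and 0 and 0 with DMSO, all at or below the 3 reads that a count of 0 allows. The other 34 passed the filter on low counts, and none of them was dropped.

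The cells were HT29, an established human colorectal adenocarcinoma line, cultured with ICG-001 at 10 µM, with CWP232228 at 1.5 µM, with YB-0158 at 0.3 µM or with the DMSO vehicle at 0.1%, in 2 libraries per group. The series title calls the 3 compounds reverse-turn peptidomimetics. Replicate 2 of ICG-001 and of CWP232228 was labelled 49 h of treatment, and the remaining libraries 48 h. Nothing in the labels ties a replicate to a culture of its own, so each p-value measures the spread between libraries, which may be technical. All 3 comparisons with vehicle share the same DMSO libraries.

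Glycolysis splits glucose into pyruvate in the cytosol, with a net yield of ATP and NADH. Pyruvate is then reduced to lactate by lactate dehydrogenase and exported through monocarboxylate transporters, or it enters mitochondria and is oxidised by pyruvate dehydrogenase. Colorectal tumour cells commonly take up much glucose and release lactate even in air. Many genes of the pathway are textbook targets of the hypoxia-inducible factors and of MYC.

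Total estimated reads were between 29071547 and 58489118 per library, so a count of 0 allows between 0.0513 and 0.103 counts scaled to library size (CPM). All 8 colorectal epithelial markers were above 1 CPM in every group. The leukocyte list summed to between 2484 and 2867 CPM, nearly all of it LYZ, at 2483 and 2701 CPM with ICG-001, 2478 and 2639 with CWP232228, 2559 and 2607 with YB-0158 and 2771 and 2860.1 with DMSO, whereas the pan-leukocyte gene PTPRC was at 0 in 7 of 8 libraries and under its floor in the remaining one. Fibroblast, endothelial and muscle lists summed to at most 6.14, 2.99 and 1.201 CPM in any library. The 2 DMSO libraries lay further apart than the others, with an SD of the log2 difference between replicates of 0.168 between the ICG-001 libraries, 0.164 between those of CWP232228, 0.164 between those of YB-0158 and 0.332 between those of DMSO, over 11335 genes. Members took part in this: 27 of 34 were higher in replicate 2 of DMSO than in replicate 1, with a median log2 difference of 0.20. Across genes, which are not independent replicates, the replicate difference followed GC content, at a Spearman rho of -0.713, -0.537 and -0.516 for the compounds in that order and 0.586 for DMSO. The part of either in the results below was not tested beyond the fits with offsets for GC content and length given with them.

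Most of the pathway was lower in treated cells. Of the 34 members, 24 were lower and 6 higher with ICG-001, 24 lower and 4 higher with CWP232228, and 25 lower and 5 higher with YB-0158, each relative to DMSO (edgeR's quasi-likelihood test, Benjamini-Hochberg adjusted p under 0.05 over 16449 genes). Among all genes tested, 24% were lower and 24.8% higher with ICG-001, 21.2% lower and 21.6% higher with CWP232228, and 22.1% lower and 21.7% higher with YB-0158. The median log2 fold change of the members was -0.47 with ICG-001, -0.37 with CWP232228 and -0.51 with YB-0158, beside 0.03, 0.04 and 0.02 over all genes tested. Together the members held 1.10% and 1.10% of all reads in the ICG-001 libraries, 1.22% and 1.16% with CWP232228, 1.09% and 1.10% with YB-0158, and 1.54% and 1.76% with DMSO. In bulk RNA, a smaller number of cells with a transcript and less of it per cell cannot be told apart.

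Lower with every compound were 23 members: HK1, GPI, PGM1, PFKL, PFKM, PFKP, PFKFB3, PFKFB4, ALDOA, ALDOC, TPI1, GAPDH, PGK1, PGAM1, BPGM, ENO1, ENO2, PKM, LDHA, LDHB, SLC16A3, PDHA1 and PDHB. Higher with every compound were 3: HK2, PFKFB2 and SLC16A1. Another 6 members passed with 1 or 2 compounds (SLC2A1, ADPGK, TIGAR, ENO3, MPC1 and MPC2), and PDK1 and PDK3 passed with none. The share of all genes called alike with every compound was not computed. Calls shared by the compounds are not independent of each other, because the comparisons use the same DMSO libraries. The CWP232228 counts rested most on single libraries: without CWP232228 replicate 2 they were 13 lower and 1 higher, without CWP232228 replicate 1 there were 2 higher, and without DMSO replicate 2 there were 2 higher. Leaving out either DMSO library left between 22 and 26 members lower with each compound. A fit of the 48 h libraries alone, an alternative chosen after seeing the data, leaves CWP232228 and ICG-001 1 library each. In that fit the median log2 fold change of the members with CWP232228 stayed at -0.36. Its numbers of calls are not given, since a group of 1 library has no spread of its own. The YB-0158 rises numbered 3 without ICG-001 replicate 1, ICG-001 replicate 2 or YB-0158 replicate 1, and 2 without YB-0158 replicate 2.

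Many folds were nearer to 0 once the fit held offsets for GC content and length. Of the called members, 27 of 30 were still called with ICG-001, 21 of 28 with CWP232228 and 26 of 30 with YB-0158. The calls that ended were those of GAPDH and PFKP with every compound, TIGAR with ICG-001, ENO2, HK2, PKM, SLC16A1 and TIGAR with CWP232228, and ENO3 and SLC16A1 with YB-0158. The log2 fold change came nearer to 0 by over 1.5 times for 12 of these members with ICG-001, 16 with CWP232228 and 10 with YB-0158, and that of PGK1 went further from 0 with CWP232228, to -0.72. Offsets for effective transcript length alone kept 26 of 30, 20 of 28 and 24 of 30 calls. They ended those of PFKP with every compound, BPGM, ENO2 and TIGAR with ICG-001, ENO2, HK1, HK2, PDHA1, PGK1, PKM and TIGAR with CWP232228, and ENO3, HK1, MPC2, PFKFB3 and PKM with YB-0158. Calls that held under both kinds of offset with every compound included GPI, PFKL, PFKM, ALDOA, ALDOC, LDHA, SLC16A3 and PFKFB4 among the falls and PFKFB2 among the rises. Some calls of the main fit had an adjusted p above 0.05 in the authors' deposited table. These were PFKP with every compound, BPGM and TIGAR with ICG-001, HK1, ENO2, PKM and TIGAR with CWP232228, and PFKFB3, ENO3 and MPC2 with YB-0158.

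**Figure D1:**
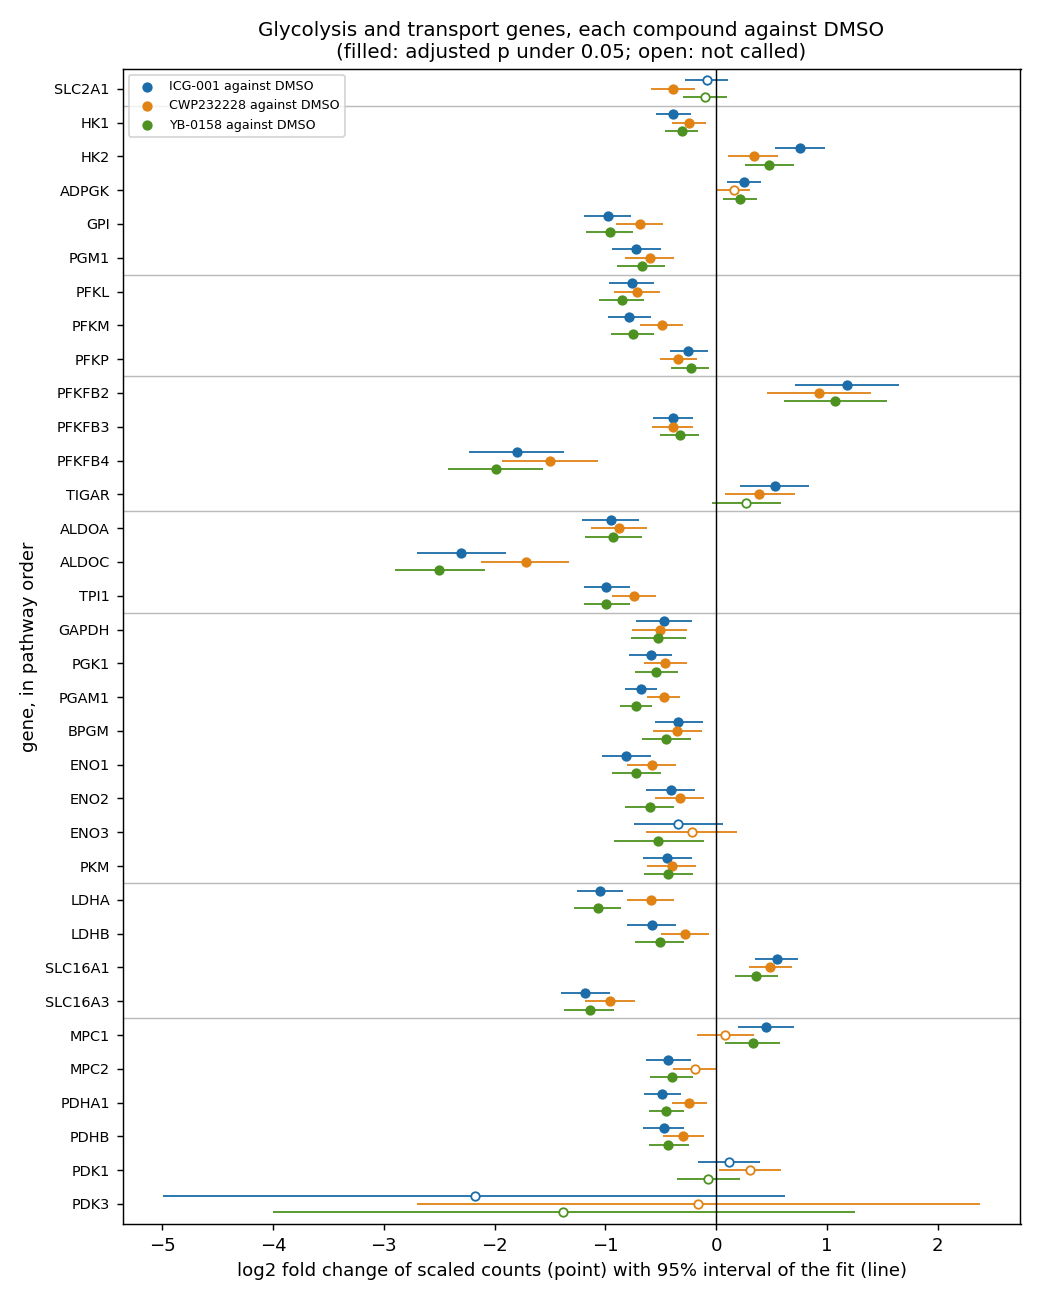
Log2 fold change of scaled counts for the 34 members in pathway order, with ICG-001 (blue), CWP232228 (orange) or YB-0158 (green) against DMSO, where each point is the fitted value, each line its 95% interval, filled points passed an adjusted p of 0.05 and grey rules part the pathway steps. Most points lie left of 0, ALDOC and PFKFB4 furthest among the called genes, and PFKFB2, HK2 and SLC16A1 lie right of 0 with every compound.

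Glucose enters through SLC2A1, the transporter that most cultured cells use, at chr1:42925375-42959176 (GRCh38, as for all gene positions given). It had 352 and 344 CPM with ICG-001, 286 and 277 with CWP232228 and 345 and 342 with YB-0158, against 337 and 400.1 with DMSO. The CWP232228 libraries were lowest, and those of ICG-001 and YB-0158 lay between the 2 vehicle libraries. By the fit it fell with CWP232228, with log2 fold changes of -0.08 with ICG-001 (SE 0.09, adjusted p = 0.45), -0.39 with CWP232228 (SE 0.09, adjusted p = 0.009) and -0.10 with YB-0158 (SE 0.09, adjusted p = 0.37). These summed reads, however, amounted to only 0.609 of the gene's mean in the authors' deposited table. In the authors' deposited table, which holds more of its reads, SLC2A1 had a log2 fold change of -0.58 with ICG-001, -0.958 with CWP232228 and -0.64 with YB-0158, with adjusted p of 5.25e-06, 1.67e-14 and 4.78e-07. The deposited FPKM, a level per transcript length and depth, ran 774 and 749 FPKM with ICG-001, 551 and 611 with CWP232228 and 753 and 708 with YB-0158, against 1233 and 1073 with DMSO, where every treated library was below both vehicle libraries. A fall with ICG-001 and with YB-0158 was thus called in the authors' deposited table and not in the summed counts.

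The first steps phosphorylate glucose and turn it into fructose phosphate, and here 2 hexokinases moved apart. HK1, the hexokinase of most tissues, had 138 and 142 CPM with ICG-001, 156 and 152 with CWP232228 and 149 and 146 with YB-0158, against 176 and 189 with DMSO. HK2, the inducible hexokinase of muscle and of many tumours, at chr2:74833981-74893359, had 101 and 103 CPM with ICG-001, 76.6 and 75.8 with CWP232228 and 83.3 and 85.2 with YB-0158, against 66.7 and 54.1 with DMSO. On CPM, treated libraries lay below vehicle for HK1 and above it for HK2, with no overlap in either. On the deposited FPKM, HK1 had 51.7 and 49.8 with CWP232228, overlapping the 49.6 and 63.7 with DMSO. By edgeR, HK1 fell on the log2 scale by 0.39 with ICG-001 (adjusted p = 0.002), 0.24 with CWP232228 (adjusted p = 0.021) and 0.31 with YB-0158 (adjusted p = 0.0066). The authors' deposited table gives HK1 a log2 fold change of -0.131 with CWP232228 (adjusted p = 0.444), so no fall was called there. HK2 rose, with log2 fold changes of 0.76 with ICG-001 (SE 0.10, adjusted p = 4.9e-04), 0.34 with CWP232228 (SE 0.10, adjusted p = 0.025) and 0.48 with YB-0158 (SE 0.10, adjusted p = 0.0049). With offsets for GC content and length, HK2 stood at 0.49 with ICG-001 and 0.19 with YB-0158, still called, and at 0.10 with CWP232228, not called (adjusted p = 0.18). ADPGK, which phosphorylates glucose with ADP in place of ATP, had 107 and 103 CPM with ICG-001, 100.4 and 95.7 with CWP232228 and 101 and 103 with YB-0158, against 88.8 and 87.03 with DMSO. It rose with ICG-001 (0.25, adjusted p = 0.015) and YB-0158 (0.22, adjusted p = 0.031), and with CWP232228 the value was 0.16 (adjusted p = 0.092).

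GPI, which turns glucose phosphate into fructose phosphate, was among the larger falls. Its libraries read 371 and 366 CPM with ICG-001, 472 and 428 with CWP232228 and 367 and 378 with YB-0158, against 666 and 784 with DMSO. The highest treated library was well below the lowest vehicle library, at log2 fold changes of -0.98 with ICG-001 (SE 0.09, adjusted p = 1.1e-04), -0.69 with CWP232228 (SE 0.09, adjusted p = 0.0014) and -0.96 with YB-0158 (SE 0.09, adjusted p = 1.4e-04). PGM1, which links glucose phosphate to glycogen, had 35.4 and 38.05 CPM with ICG-001, 40.96 and 38.7 with CWP232228 and 37.5 and 38.4 with YB-0158, against 55.8 and 65.3 with DMSO, and its log2 fold change was -0.72 with ICG-001, -0.60 with CWP232228 and -0.67 with YB-0158 (adjusted p = 5.4e-04, 0.0026 and 8.8e-04 by edgeR).

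Phosphofructokinase makes the committed step, as a tetramer of liver (PFKL), muscle (PFKM) and platelet (PFKP) subunits. All 3 genes were called lower with every compound, but only for PFKL and PFKM did the fall remain once transcript length was taken into account. PFKL had 134 and 126 CPM with ICG-001, 143 and 127 with CWP232228 and 120.5 and 124 with YB-0158, against 207 and 234 with DMSO, and PFKM had 62.2 and 62.3 CPM with ICG-001, 72.6 and 79.8 with CWP232228 and 66.9 and 60.4 with YB-0158, against 103 and 112 with DMSO. In both the treated libraries were below vehicle without overlap. The log2 fold change of PFKL was -0.76 with ICG-001 (SE 0.09, adjusted p = 3.0e-04), -0.71 with CWP232228 (SE 0.09, adjusted p = 0.0012) and -0.85 with YB-0158 (SE 0.09, adjusted p = 2.2e-04), and that of PFKM was -0.79 with ICG-001, -0.49 with CWP232228 and -0.75 with YB-0158 (adjusted p = 2.3e-04, 0.0036 and 3.3e-04). PFKP had 202 and 193 CPM with ICG-001, 191 and 179 with CWP232228 and 200.4 and 198 with YB-0158, against 222 and 247 with DMSO, with a log2 fold change of -0.25 with ICG-001, -0.34 with CWP232228 and -0.23 with YB-0158 (adjusted p = 0.027, 0.0092 and 0.037). With offsets for effective transcript length PFKP stood at 0.03 with CWP232228 and 0.03 with YB-0158, and the deposited FPKM gave 0.02 for both on the log2(FPKM + 1) scale, so its direction depended on the quantity. For PFKL the length offsets went the other way, to -1.28 with ICG-001, -1.55 with CWP232228 and -1.60 with YB-0158, whereas those for GC content and length put it at -0.48, -0.37 and -0.59. In the unstranded libraries, reads from the 8.58% of the exonic bases of PFKM that SENP1 also covers on the opposite strand cannot be assigned to either gene.

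The bifunctional PFKFB enzymes make and remove fructose bisphosphate that activates phosphofructokinase, and TIGAR, a p53 target, removes it. The 3 PFKFB genes did not move together. PFKFB4, at chr3:48517684-48562015, had 5.52 and 4.76 CPM with ICG-001, 6.15 and 6.52 with CWP232228 and 5.05 and 3.94 with YB-0158, against 14.9 and 20.95 with DMSO. The highest treated library, at 6.52 CPM, was far below both vehicle libraries, and the log2 fold change was -1.80 with ICG-001 (SE 0.19, adjusted p = 1.8e-04), -1.50 with CWP232228 (SE 0.19, adjusted p = 0.0012) and -1.99 with YB-0158 (SE 0.19, adjusted p = 1.5e-04). PFKFB3, the form with high kinase activity that is induced in many tumours, had 40.2 and 44.3 CPM with ICG-001, 42.2 and 41.98 with CWP232228 and 43.6 and 44.3 with YB-0158, against 54.3 and 56.2 with DMSO, with a log2 fold change of -0.39 with ICG-001, -0.39 with CWP232228 and -0.33 with YB-0158 (adjusted p = 0.0043, 0.0062 and 0.01). PFKFB2, the heart form, at chr1:207034366-207081024, had 57.6 and 56.4 CPM with ICG-001, 45.96 and 50.1 with CWP232228 and 53.6 and 52.3 with YB-0158, against 31.3 and 18.97 with DMSO. Here the treated libraries were all above vehicle, and the 2 vehicle libraries differed from each other more than the treated ones did. Its log2 fold change was 1.18 with ICG-001 (SE 0.20, adjusted p = 0.0027), 0.93 with CWP232228 (SE 0.20, adjusted p = 0.0099) and 1.07 with YB-0158 (SE 0.20, adjusted p = 0.0046), and with GC and length offsets 0.63, 0.37 and 0.56, all still called. TIGAR had 21.5 and 24.9 CPM with ICG-001, 19.9 and 22.1 with CWP232228 and 17.1 and 21.7 with YB-0158, against 15.6 and 16.4 with DMSO, and rose with ICG-001 (0.53, adjusted p = 0.012) and CWP232228 (0.39, adjusted p = 0.047). With YB-0158 it was at 0.27 (adjusted p = 0.13), and GC and length offsets put it at 0.13 with ICG-001 (adjusted p = 0.46), -0.03 with CWP232228 and -0.09 with YB-0158, so that neither rise was called.

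Aldolase splits the sugar and TPI1 interconverts the trioses. ALDOC, the aldolase of brain, at chr17:28573115-28577264, fell more than any other called member with each compound. Its libraries had 12.9 and 13.7 CPM with ICG-001, 20.8 and 18.9 with CWP232228 and 12.5 and 10.6 with YB-0158, against 53.8 and 77.3 with DMSO. Every treated library lay far below both vehicle libraries, and the log2 fold change was -2.30 with ICG-001 (SE 0.17, adjusted p = 5.9e-05), -1.72 with CWP232228 (SE 0.17, adjusted p = 7.4e-04) and -2.50 with YB-0158 (SE 0.18, adjusted p = 4.9e-05). ALDOA, the main aldolase of muscle and of most cell lines, had 728 and 707 CPM with ICG-001, 796 and 715 with CWP232228 and 723 and 738 with YB-0158, against 1226 and 1549.6 with DMSO. ALDOA fell as well, with log2 fold changes of -0.95 with ICG-001, -0.88 with CWP232228 and -0.93 with YB-0158 (adjusted p = 3.1e-04, 0.0013 and 4.1e-04). TPI1 had 508 and 508 CPM with ICG-001, 632 and 571 with CWP232228 and 506 and 509 with YB-0158, against 932 and 1077 with DMSO, with a log2 fold change of -0.99 with ICG-001, -0.74 with CWP232228 and -0.99 with YB-0158 (adjusted p = 8.9e-05, 0.001 and 1.1e-04). Named pseudogenes of TPI1 held at most 0.300% of the reads of TPI1 and these pseudogenes together, and those of ALDOA held none.

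The lower steps yield ATP and pyruvate, and 7 of their 8 genes fell with every compound. GAPDH, which oxidises glyceraldehyde phosphate and often serves as a reference gene, had 2998 and 3037 CPM with ICG-001, 3090.5 and 2806 with CWP232228 and 2904 and 2929 with YB-0158, against 3737 and 4640.2 with DMSO. PGK1, the first ATP-yielding enzyme, had 618 and 639.7 CPM with ICG-001, 699.7 and 679 with CWP232228 and 648 and 657 with YB-0158, against 872 and 1022 with DMSO. Both were lower in all treated libraries, with log2 fold changes for GAPDH of -0.47 with ICG-001, -0.51 with CWP232228 and -0.52 with YB-0158 (adjusted p = 0.0076, 0.0079 and 0.0056) and for PGK1 of -0.59 with ICG-001, -0.46 with CWP232228 and -0.54 with YB-0158 (adjusted p = 8.4e-04, 0.0045 and 0.0015). The GAPDH calls were lost with GC and length offsets, at -0.04 with ICG-001, -0.05 with CWP232228 and -0.12 with YB-0158. PGAM1, the mutase of the next step, had 236 and 233 CPM with ICG-001, 273 and 269 with CWP232228 and 224 and 230.0 with YB-0158, against 366 and 384 with DMSO. Its libraries were tight within groups, with log2 fold changes of -0.68 with ICG-001, -0.47 with CWP232228 and -0.72 with YB-0158 and the smallest SE of the members (0.06 in each comparison).

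BPGM, which makes the bisphosphoglycerate that lowers the oxygen affinity of haemoglobin in red cells, was a low gene at 11.5 and 11.6 CPM with ICG-001, 11.03 and 11.8 with CWP232228 and 10.6 and 10.7 with YB-0158, against 15.04 and 14.03 with DMSO. It fell by 0.34, 0.35 and 0.45 on the log2 scale with ICG-001, CWP232228 and YB-0158 (adjusted p = 0.019, 0.021 and 0.0063). Of the enolases, ENO1, the form of most tissues, had 1146 and 1168 CPM with ICG-001, 1385 and 1334 with CWP232228 and 1222 and 1251 with YB-0158, against 1840.1 and 2225 with DMSO, and its log2 fold change was -0.81 with ICG-001, -0.58 with CWP232228 and -0.72 with YB-0158 (adjusted p = 3.2e-04, 0.0029 and 6.5e-04). ENO2, the neuronal form, had 47.2 and 48.4 CPM with ICG-001, 50.7 and 50.5 with CWP232228 and 42.9 and 40.8 with YB-0158, against 57.7 and 69.4 with DMSO, with log2 fold changes of -0.41 with ICG-001, -0.33 with CWP232228 and -0.60 with YB-0158 (adjusted p = 0.0079, 0.025 and 0.0016). Treated and vehicle libraries did not overlap for either enolase. With GC and length offsets ENO2 stood at -0.23 with ICG-001 and -0.44 with YB-0158, still called, and at -0.12 with CWP232228, not called (adjusted p = 0.16). ENO3, the muscle form, was at 4.99 to 8.87 CPM over all libraries and was called only with YB-0158 (-0.52, adjusted p = 0.044), beside -0.34 with ICG-001 and -0.22 with CWP232228. That call held in 4 of 20 alternative fits and stood at -0.10 with GC and length offsets (adjusted p = 0.56), and the authors' deposited table gives ENO3 an adjusted p of 0.0507 with YB-0158.

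**Figure D2:**
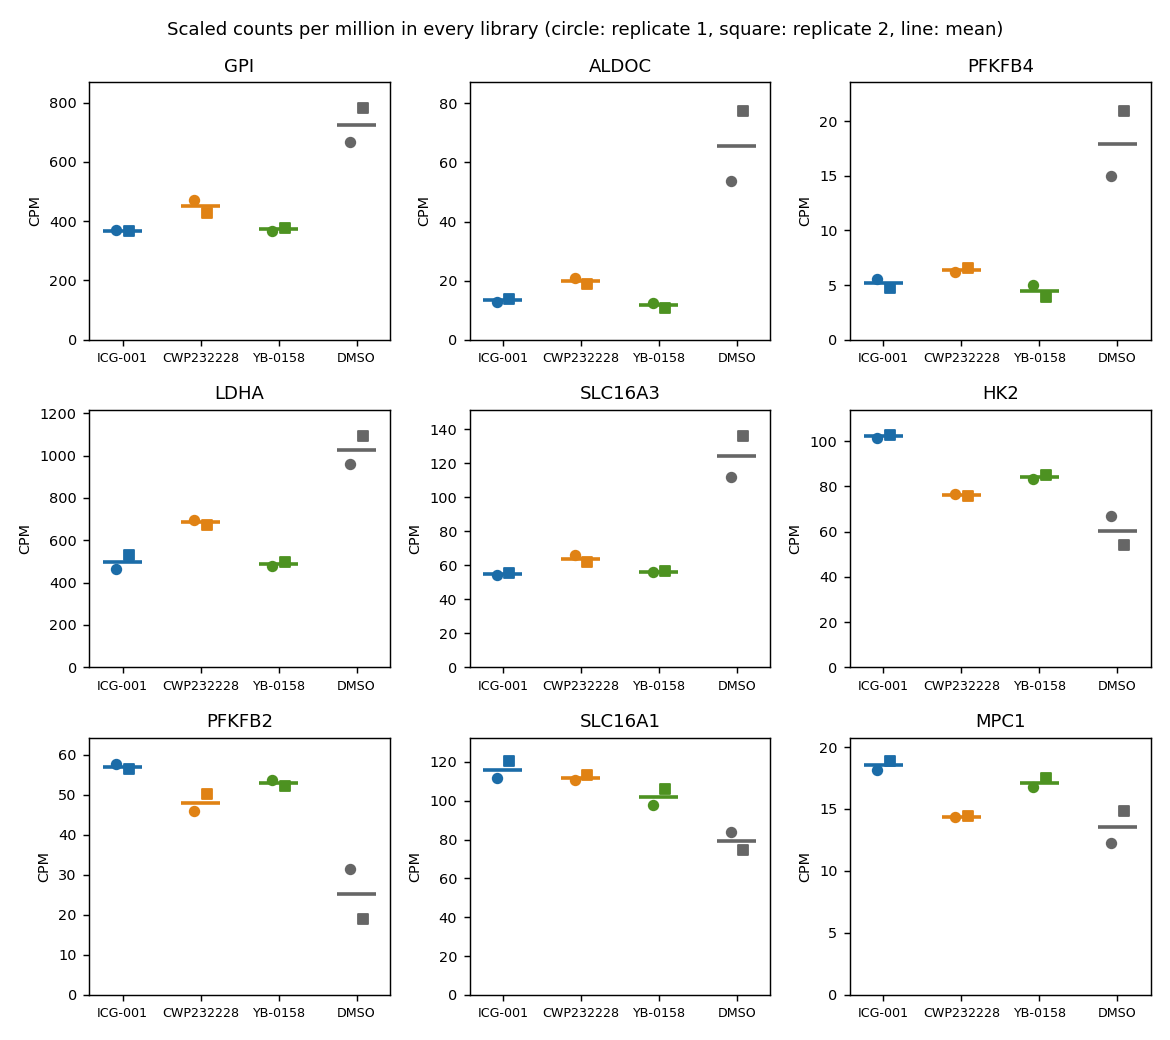
Counts scaled to library size (CPM) of 9 members in every library, with replicate 1 as circles, replicate 2 as squares and the mean of 2 libraries as a line, ICG-001, CWP232228 and YB-0158 standing left of DMSO and each axis starting at 0. GPI, ALDOC, PFKFB4, LDHA and SLC16A3 are lower in all treated libraries, HK2, PFKFB2 and SLC16A1 are higher, and MPC1 is separated from DMSO with ICG-001 and YB-0158.

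PKM, which makes pyruvate and ATP, is spliced with 1 of 2 mutually exclusive exons, exon 9 in the M1 form of muscle and brain and exon 10 in the M2 form of proliferating cells. The exons are shown because they tell the forms apart. Both are 167 bases long, on the minus strand of chromosome 15 (GRCh38), and the capitals mark the 62 bases at which they differ. Exon 9 lies at chr15:72203022-72203188 and exon 10 at chr15:72202454-72202620.
PKM exon 9 (M1): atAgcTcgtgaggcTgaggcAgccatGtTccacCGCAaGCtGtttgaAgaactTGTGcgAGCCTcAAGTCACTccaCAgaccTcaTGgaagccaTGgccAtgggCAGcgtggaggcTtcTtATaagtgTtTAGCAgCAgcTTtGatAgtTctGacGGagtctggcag
PKM exon 10 (M2): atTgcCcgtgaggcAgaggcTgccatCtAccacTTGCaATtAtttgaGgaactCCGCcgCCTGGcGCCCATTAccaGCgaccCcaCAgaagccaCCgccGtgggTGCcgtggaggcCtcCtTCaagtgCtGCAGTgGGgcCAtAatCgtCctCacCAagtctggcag

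PKM as a whole had 1729.5 and 1715 CPM with ICG-001, 1837 and 1691 with CWP232228 and 1732 and 1720.0 with YB-0158, against 2123 and 2539 with DMSO. Treated libraries were below vehicle, with log2 fold changes of -0.44 with ICG-001, -0.40 with CWP232228 and -0.43 with YB-0158 (adjusted p = 0.0062, 0.012 and 0.0074). With GC and length offsets PKM stood at -0.16 with ICG-001 and -0.18 with YB-0158, still called, and at -0.11 with CWP232228, not called (adjusted p = 0.13). Transcripts with exon 10 held most reads of the gene in every library, between 70.9% and 83.2%. In TPM they held less of the gene, from 35.7% in CWP232228 replicate 2 to 50.3% in DMSO replicate 2. Most of the remaining TPM lay in transcripts with neither exon or with a retained intron. Among transcripts with either exon, those with exon 9 made up 5.89% and 5.58% of the summed TPM with ICG-001, 3.97% and 5.03% with CWP232228, 5.36% and 6.499% with YB-0158, and 2.69% and 2.74% with DMSO. The treated shares were all above the vehicle shares, and the M2 form stayed far ahead of the M1 form throughout. The TPM of exon 9 transcripts was 33.3 and 29.3 with ICG-001, 23.4 and 27.6 with CWP232228, 28.8 and 35.3 with YB-0158, and 19.2 and 21.7 with DMSO, beside 532 and 495 with ICG-001, 566 and 520.2 with CWP232228, 508 and 508 with YB-0158, and 693 and 772 with DMSO for exon 10 transcripts. These shares come from reads that Salmon divides between transcripts by a model, and they are given as a description. In the test of transcript usage PKM was not called, with adjusted p of 0.93 under ICG-001 and of 1 under the other two compounds (edgeR's diffSpliceDGE, Simes p per gene).

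**Figure D3:**
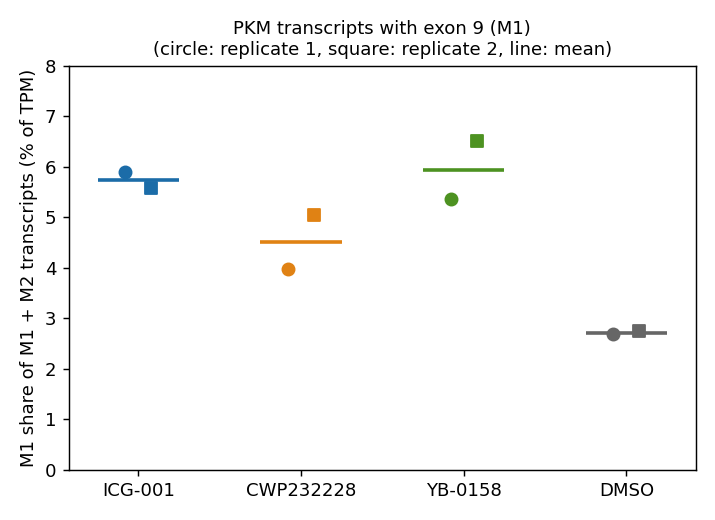
Share of transcripts with exon 9 (M1) among PKM transcripts with exon 9 or exon 10, in percent of TPM, per library (circle for replicate 1, square for replicate 2, line for the mean of 2), treated groups left of DMSO. The 6 treated libraries sit between 3.97% and 6.499%, above the DMSO libraries at 2.69% and 2.74%.

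Transcript usage changed for few members. The test called GPI and PFKM with ICG-001, PFKM alone with CWP232228, and PFKM and LDHB with YB-0158, that is 2, 1 and 2 of 34 members, against 3.88%, 3.58% and 3.2% of 11611 genes tested. In PFKM the transcript PFKM-202 held 1.33% and 3.36% of reads with ICG-001, 2.41% and 2.27% with CWP232228, 1.04% and 2.75% with YB-0158, and 0 with both DMSO libraries. PFKM-201 was at 0 in every treated library and at 2.71% and 1.72% with DMSO. Minor transcripts thus carried the PFKM calls. The call for LDHB rested on a retained-intron transcript, LDHB-209, at 0.0318% and 0% with YB-0158 and at 0% and 3.39% with DMSO, so on 1 vehicle library. That for GPI rested on GPI-214, at 0 in both ICG-001 libraries and at 0.663% and 0% with DMSO. The YB-0158 count was 0 without ICG-001 replicate 1, ICG-001 replicate 2, YB-0158 replicate 1 or DMSO replicate 2, and the CWP232228 count was 0 without ICG-001 replicate 1, ICG-001 replicate 2 or DMSO replicate 2, while leaving out CWP232228 replicate 1 or DMSO replicate 1 gave 2. For ICG-001 it was 1 without any of 6 libraries, the exceptions being ICG-001 replicate 2 and YB-0158 replicate 1. Leaving out CWP232228 replicate 1, CWP232228 replicate 2 or YB-0158 replicate 2 gave 1 for YB-0158. A gene-level F test in place of the Simes p also called ENO1 with every compound and PDHA1 with CWP232228, and did not call LDHB.

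At the end of the pathway, lactate dehydrogenase turns pyruvate into lactate. LDHA, the M subunit that favours lactate formation, at chr11:18394388-18408425, had 466 and 529 CPM with ICG-001, 697 and 670.4 with CWP232228 and 478 and 498 with YB-0158, against 959 and 1094 with DMSO. Libraries of ICG-001 and YB-0158 were lowest, and those of CWP232228 lay between them and vehicle. LDHA fell with each compound, at log2 fold changes of -1.05 with ICG-001 (SE 0.09, adjusted p = 8.3e-05), -0.59 with CWP232228 (SE 0.09, adjusted p = 0.0024) and -1.07 with YB-0158 (SE 0.09, adjusted p = 8.7e-05). LDHB, the H subunit of heart, had 597 and 663 CPM with ICG-001, 767 and 789 with CWP232228 and 650.3 and 674 with YB-0158, against 863 and 1026 with DMSO, with a log2 fold change of -0.58 with ICG-001, -0.28 with CWP232228 and -0.51 with YB-0158 (adjusted p = 0.0016, 0.045 and 0.0034). Named LDHA pseudogenes held between 1.95% and 2.49% of the reads of LDHA and these pseudogenes together, so the value of LDHA carries that uncertainty.

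The monocarboxylate transporters that carry lactate out moved in opposite directions. SLC16A3 (MCT4), the low-affinity exporter of glycolytic cells, at chr17:82228397-82261129, had 54.1 and 55.5 CPM with ICG-001, 66.2 and 61.9 with CWP232228 and 55.9 and 56.5 with YB-0158, against 112 and 136 with DMSO. SLC16A1 (MCT1), the widely expressed high-affinity carrier, at chr1:112911847-112957013, had 112 and 120.5 CPM with ICG-001, 111 and 113 with CWP232228 and 97.8 and 106 with YB-0158, against 84.1 and 74.7 with DMSO. Neither gene's treated libraries overlapped with vehicle. The log2 fold change of SLC16A3 was -1.18 with ICG-001 (SE 0.10, adjusted p = 6.6e-05), -0.96 with CWP232228 (SE 0.10, adjusted p = 6.9e-04) and -1.14 with YB-0158 (SE 0.10, adjusted p = 8.7e-05), and that of SLC16A1 was 0.55 with ICG-001 (SE 0.09, adjusted p = 0.0012), 0.49 with CWP232228 (SE 0.09, adjusted p = 0.0035) and 0.36 with YB-0158 (SE 0.09, adjusted p = 0.0097). With GC and length offsets SLC16A1 stood at 0.17 with ICG-001, still called, and at 0.07 with CWP232228 and 0.05 with YB-0158, not called. CSNK1D covers 5.36% of the exonic bases of SLC16A3 on the opposite strand, so reads there cannot be assigned in these libraries.

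Pyruvate entry into mitochondria needs the carrier MPC1 with MPC2, and pyruvate dehydrogenase (PDHA1 and PDHB are subunits of its first enzyme), which the kinases PDK1 and PDK3 switch off. PDHA1 had 97.5 and 105 CPM with ICG-001, 117 and 122 with CWP232228 and 103 and 104 with YB-0158, against 137 and 145 with DMSO, and PDHB had 33.96 and 35.8 CPM with ICG-001, 39.4 and 39.3 with CWP232228 and 35.3 and 36.7 with YB-0158, against 46.5 and 50.3 with DMSO. Both subunits were lower in every treated library. The log2 fold change of PDHA1 was -0.49 with ICG-001, -0.24 with CWP232228 and -0.45 with YB-0158 (adjusted p = 9.2e-04, 0.026 and 0.0015), and that of PDHB was -0.47 with ICG-001, -0.30 with CWP232228 and -0.43 with YB-0158 (adjusted p = 0.0018, 0.019 and 0.0034). MPC1 had 18.2 and 18.9 CPM with ICG-001, 14.3 and 14.4 with CWP232228 and 16.8 and 17.5 with YB-0158, against 12.3 and 14.9 with DMSO, and MPC2 had 33.9 and 33.8 CPM with ICG-001, 42.2 and 37.5 with CWP232228 and 33.2 and 35.6 with YB-0158, against 46.1 and 44.98 with DMSO. The 2 parts of the carrier went opposite ways with ICG-001 and with YB-0158. MPC1 rose by 0.45 with ICG-001 (adjusted p = 0.0096) and by 0.33 with YB-0158 (adjusted p = 0.037) on the log2 scale, and with CWP232228 it was at 0.08 (adjusted p = 0.58). MPC2 fell by 0.43 with ICG-001 (adjusted p = 0.0042) and by 0.40 with YB-0158 (adjusted p = 0.0063), and with CWP232228 it was at -0.19 (adjusted p = 0.11). DCAF6 covers 22.5% of the exonic bases of MPC2 on the opposite strand.

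PDK1, a hypoxia-induced kinase, was at 20.4 to 28.6 CPM over all libraries and passed with no compound, at 0.12 with ICG-001, 0.31 with CWP232228 and -0.07 with YB-0158 (adjusted p = 0.45, 0.073 and 0.69). With GC and length offsets PDK1 was called lower with every compound, at -0.65 with ICG-001 (adjusted p = 0.0024), -0.51 with CWP232228 (adjusted p = 0.018) and -0.77 with YB-0158 (adjusted p = 0.0011). Offsets for effective transcript length alone put it at 0.20 with ICG-001, 0.45 with CWP232228 and 0.11 with YB-0158, none called. The authors' deposited table gives 0.121, 0.25 and 0.0636 in that order, also not called, so the direction of PDK1 depended on the processing. PDK3 was low in the summed counts, which leave out transcripts without a match in GENCODE release 29, at 0 to 1.77 CPM. It passed with no compound, at -2.18 with ICG-001, -0.16 with CWP232228 and -1.38 with YB-0158, with SEs above 1. Its summed reads were only 0.268 of the authors' mean, and the authors' deposited table gives PDK3 a log2 fold change of -1.69 with ICG-001, -0.0615 with CWP232228 and -1.53 with YB-0158. The adjusted p there were 1.89e-04, 0.788 and 6.62e-04. A fall of PDK3 with ICG-001 and with YB-0158 was thus called in the deposited table and not in the summed counts.

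Levels of different genes can be set side by side on the authors' deposited FPKM. In vehicle, MCT4 transcript exceeded that of MCT1, while with ICG-001 and YB-0158 MCT1 was slightly ahead. The FPKM ratio of SLC16A1 over SLC16A3 was 1.15 and 1.14 with ICG-001, 0.857 and 1.02 with CWP232228, 1.11 and 1.10 with YB-0158, and 0.449 and 0.313 with DMSO. All treated ratios were above both vehicle ratios. PFKFB2 over PFKFB3 gave 1.12 and 1.12 with ICG-001, 0.999 and 0.914 with CWP232228, 0.808 and 0.892 with YB-0158, and 0.492 and 0.288 with DMSO. HK2 over HK1 gave 0.488 and 0.457 with ICG-001, 0.276 and 0.285 with CWP232228, 0.352 and 0.386 with YB-0158, and 0.253 and 0.161 with DMSO, so HK1 stayed the more abundant hexokinase everywhere. For the phosphofructokinase subunits, PFKP over PFKL gave 2.40 and 1.62 with ICG-001, 2.62 and 2.56 with CWP232228, 2.88 and 2.49 with YB-0158, and 0.801 and 0.929 with DMSO. The platelet subunit was ahead of the liver subunit in every treated library and behind it in both vehicle libraries on this scale.

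MPC1 over MPC2 gave an FPKM ratio of 0.973 and 1.04 with ICG-001, 0.627 and 0.699 with CWP232228, 0.802 and 0.805 with YB-0158, and 0.447 and 0.517 with DMSO. LDHA over LDHB gave 0.644 and 0.722 with ICG-001, 0.792 and 0.656 with CWP232228, 0.641 and 0.640 with YB-0158, and 0.799 and 0.792 with DMSO. All treated LDHA ratios were below both vehicle ratios, that of CWP232228 replicate 1 by under 0.001. ALDOC remained a minor aldolase at 1.58% and 2.01% of the FPKM of ALDOA and ALDOC together with ICG-001, 2.21% and 2.77% with CWP232228, 1.63% and 1.27% with YB-0158, and 3.96% and 4.78% with DMSO. These ratios are descriptions with 2 libraries per group and carry no test.

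**Figure D4:**
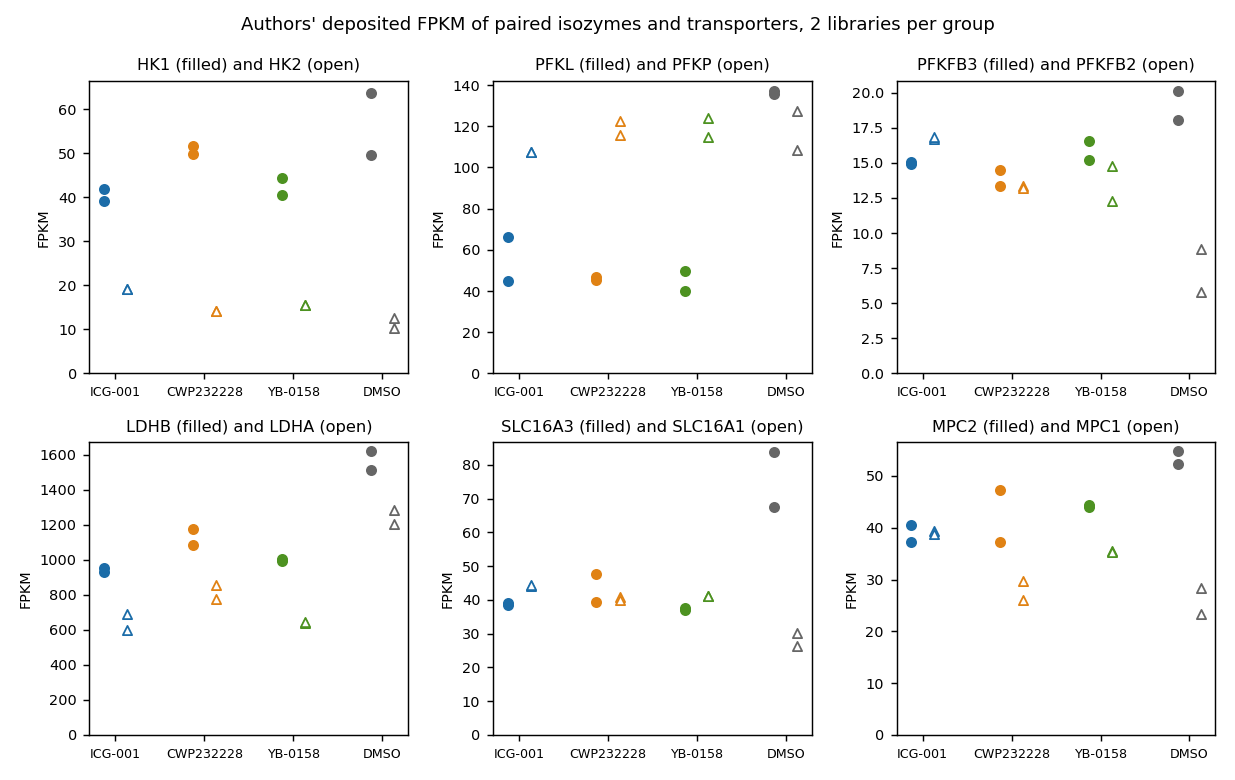
The authors' deposited FPKM of 6 pairs of isozymes or transporters in each library, the first gene of a pair as filled circles and the second as open triangles, 2 libraries per group, treated groups left of DMSO. The SLC16A3 and PFKL circles stand above the triangles of SLC16A1 and PFKP in DMSO and, except for CWP232228 replicate 1 in SLC16A3, below them in treated cells.

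Fewer members were called between compounds than against vehicle. The doses differ (0.3 to 10 µM), so compound and dose cannot be told apart. In the fit without a replicate block, CWP232228 against ICG-001 called 1 member higher and 1 lower, where 3.65% and 3.17% of all genes tested were called. LDHA was higher with CWP232228 than with ICG-001 by a log2 difference of 0.46 (95% interval 0.25 to 0.67, adjusted p = 0.024), and HK2 was lower by a log2 difference of -0.42 (95% interval -0.64 to -0.20, adjusted p = 0.039). YB-0158 against CWP232228 called 0 members higher and 3 lower, where 3.56% and 4.21% of genes were called. These were ALDOC at -0.78 (95% interval -1.18 to -0.37, adjusted p = 0.035), LDHA at -0.49 (95% interval -0.70 to -0.28, adjusted p = 0.017) and PGAM1 at -0.25 (95% interval -0.40 to -0.11, adjusted p = 0.046). With the replicate block both LDHA calls held, at adjusted p of 0.036 and 0.027, and those of HK2 (0.07), ALDOC (0.07) and PGAM1 (0.079) did not, at the same log2 differences to within 0.01. On the deposited FPKM, limma called 0 members in either comparison, with 11 and 9 at an unadjusted p under 0.05, whereas DESeq2 called 9 for CWP232228 against ICG-001 and 4 for YB-0158 against CWP232228.

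YB-0158 against ICG-001 called 0 members in either direction, where 0.00608% of all genes were called higher and 0% lower. By edgeR 1 member, HK2, had an unadjusted p under 0.05, and DESeq2 also called 0. For HK2 the log2 difference was -0.28 (95% interval -0.50 to -0.06, adjusted p = 0.85). The interval for LDHA ran from -0.24 to 0.18, for ALDOC from -0.60 to 0.20, for SLC16A3 from -0.19 to 0.26 and for PFKFB2 from -0.56 to 0.34. With 2 libraries per group, differences inside those bounds were not excluded.

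Genes around the pathway were grouped in lists by name, and no difference between a list and the members was tested. Of the 19 tested genes among 34 isozymes and partners outside the members, 2 were higher and 7 lower with ICG-001, 4 and 6 with CWP232228, and 5 and 5 with YB-0158, with medians of 0.02, 0.06 and -0.06. Falls made up 36.8%, 31.6% and 26.3% of the list, beside 24%, 21.2% and 22.1% of all genes tested. Rises made up 10.5%, 21.1% and 26.3%, beside 24.8%, 21.6% and 21.7%. HKDC1, a gene of the hexokinase family, had 92.6 and 90.8 CPM with ICG-001, 73.3 and 67.2 with CWP232228 and 111 and 104 with YB-0158, against 48.6 and 49.7 with DMSO and rose by 0.90, 0.51 and 1.13 on the log2 scale for the compounds in that order (adjusted p = 7.2e-05, 0.0021 and 3.0e-05). SLC2A6, a sugar transporter of lysosomes, had 3.23 and 2.76 CPM with ICG-001, 4.29 and 4.63 with CWP232228 and 2.75 and 3.07 with YB-0158, against 9.35 and 10.5 with DMSO, with log2 fold changes of -1.72 with ICG-001, -1.15 with CWP232228 and -1.77 with YB-0158 (adjusted p = 7.0e-05, 0.0012 and 7.4e-05). The direction of HKDC1 was that of HK2, and the opposite of HK1.

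Of 8 tested pentose phosphate genes, 0 were higher and 5, 6 and 4 lower with ICG-001, CWP232228 and YB-0158. TKT, transketolase of its non-oxidative arm, had 457 and 426 CPM with ICG-001, 504 and 465 with CWP232228 and 478 and 499 with YB-0158, against 744 and 877 with DMSO, with log2 fold changes of -0.88 with ICG-001, -0.74 with CWP232228 and -0.73 with YB-0158 (adjusted p = 2.1e-04, 0.0012 and 5.6e-04). Of 14 tested glycogen genes, 5 were higher and 2 lower with ICG-001, 4 and 1 with CWP232228, and 5 and 2 with YB-0158. PGM2L1, which makes glucose bisphosphate, had 11.4 and 12.6 CPM with ICG-001, 11.9 and 13.2 with CWP232228 and 17.4 and 18.1 with YB-0158, against 5.98 and 3.67 with DMSO and log2 fold changes of 1.31 with ICG-001, 1.38 with CWP232228 and 1.88 with YB-0158. Of 16 citric acid cycle genes, 2 were higher and 9 lower with ICG-001, 2 and 7 with CWP232228, and 1 and 9 with YB-0158. SDHA, the flavoprotein of succinate dehydrogenase, had 234 and 232 CPM with ICG-001, 317 and 292 with CWP232228 and 257 and 251 with YB-0158, against 384 and 463 with DMSO, and fell by 0.86, 0.48 and 0.74 on the log2 scale (adjusted p = 2.3e-04, 0.0055 and 5.3e-04). In percent of the genes tested, falls made up 62.5%, 75% and 50% of the pentose phosphate list and 56.2%, 43.8% and 56.2% of the citric acid cycle list, beside 24%, 21.2% and 22.1% of all genes tested. Rises made up 35.7%, 28.6% and 35.7% of the glycogen list, beside 24.8%, 21.6% and 21.7% of all genes, a difference of 1 to 2 genes.

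Gluconeogenesis had 6 tested genes, of which 1 was higher and 5 were lower with each compound. Falls were thus 83.3% of this short list, beside 24%, 21.2% and 22.1% of all genes tested, and rises 16.7%, beside 24.8%, 21.6% and 21.7%. The higher one was PCK2, the mitochondrial enzyme that makes phosphoenolpyruvate, at 196 and 183 CPM with ICG-001, 119.8 and 106 with CWP232228 and 171 and 168 with YB-0158, against 50.2 and 52.7 with DMSO. Its treated libraries were all well above vehicle, with log2 fold changes of 1.88 with ICG-001, 1.14 with CWP232228 and 1.72 with YB-0158 (SE 0.08 each; adjusted p = 4.3e-06, 1.8e-04 and 6.9e-06). FBP1, which reverses phosphofructokinase, had 49.5 and 49.3 CPM with ICG-001, 65.03 and 64.6 with CWP232228 and 51.9 and 51.2 with YB-0158, against 96.8 and 122 with DMSO, with log2 fold changes of -1.14 with ICG-001, -0.75 with CWP232228 and -1.08 with YB-0158 (adjusted p = 9.7e-05, 0.0016 and 1.6e-04).

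Targets of the hypoxia-inducible factors outside glycolysis held both falls and rises. Of 16 tested, 4 were higher and 8 lower with ICG-001, 3 and 10 with CWP232228, and 4 and 8 with YB-0158. The higher ones, at 25%, 18.8% and 25%, were near the share over all genes (24.8%, 21.6% and 21.7%), while the lower ones made up 50%, 62.5% and 50%, beside 24%, 21.2% and 22.1%. VEGFA, the angiogenic growth factor, had 278 and 269 CPM with ICG-001, 161 and 149 with CWP232228 and 282 and 264 with YB-0158, against 83.6 and 90.4 with DMSO, and DDIT4, an inhibitor of mTOR complex signalling that also responds to other stresses, had 216 and 210.3 CPM with ICG-001, 111 and 89.7 with CWP232228 and 192 and 183 with YB-0158, against 53.5 and 54.5 with DMSO. Both were higher in every treated library, with log2 fold changes of 1.65 with ICG-001, 0.84 with CWP232228 and 1.65 with YB-0158 for VEGFA (adjusted p = 5.5e-06, 5.1e-04 and 6.8e-06) and of 1.98 with ICG-001, 0.89 with CWP232228 and 1.79 with YB-0158 for DDIT4 (adjusted p = 9.7e-06, 8.7e-04 and 1.6e-05). CA9 and NDRG1, named after their values were seen, went the other way. CA9, a cell-surface carbonic anhydrase, had 23.5 and 25.9 CPM with ICG-001, 60.9 and 53.2 with CWP232228 and 30.7 and 28.1 with YB-0158, against 136 and 206 with DMSO and log2 fold changes of -2.79 with ICG-001, -1.59 with CWP232228 and -2.54 with YB-0158 (adjusted p = 7.2e-05, 0.0015 and 1.2e-04). NDRG1 had 24.7 and 31.00 CPM with ICG-001, 36.8 and 27.9 with CWP232228 and 29.4 and 22.7 with YB-0158, against 134 and 205 with DMSO and log2 fold changes of -2.61 with ICG-001, -2.39 with CWP232228 and -2.70 with YB-0158 (adjusted p = 5.1e-04, 0.0017 and 5.2e-04).

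Among 8 tested genes of the hypoxia-inducible factors and their regulators, 4 were higher and 2 lower with ICG-001, 1 and 2 with CWP232228, and 3 and 2 with YB-0158. The lower ones, at 25% with each compound, were near the share over all genes (24%, 21.2% and 22.1%). Rises made up 50%, 12.5% and 37.5%, beside 24.8%, 21.6% and 21.7% of all genes. The lower ones included EGLN3, a prolyl hydroxylase that marks the factors for decay and is itself one of their targets, at 9.85 and 11.5 CPM with ICG-001, 12.8 and 9.75 with CWP232228 and 10.8 and 9.901 with YB-0158, against 18.3 and 25.2 with DMSO. EGLN3 had log2 fold changes of -1.03 with ICG-001, -0.95 with CWP232228 and -1.07 with YB-0158 (adjusted p = 0.0024, 0.0057 and 0.0024). EGLN2, a second hydroxylase, had log2 fold changes of -0.43 with ICG-001, -0.54 with CWP232228 and -0.45 with YB-0158 (adjusted p = 0.0034, 0.0024 and 0.0035). For HIF1A, the factor's own alpha subunit and also named after its values were seen, the libraries had 86.3 and 96.3 CPM with ICG-001, 98.6 and 93.9 with CWP232228 and 87.7 and 97.04 with YB-0158, against 68.6 and 48.9 with DMSO, with log2 fold changes of 0.64 with ICG-001, 0.71 with CWP232228 and 0.65 with YB-0158 (adjusted p = 0.0092, 0.0081 and 0.0095). Transcript levels do not measure the protein, which is controlled by decay.

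**Figure D5:**
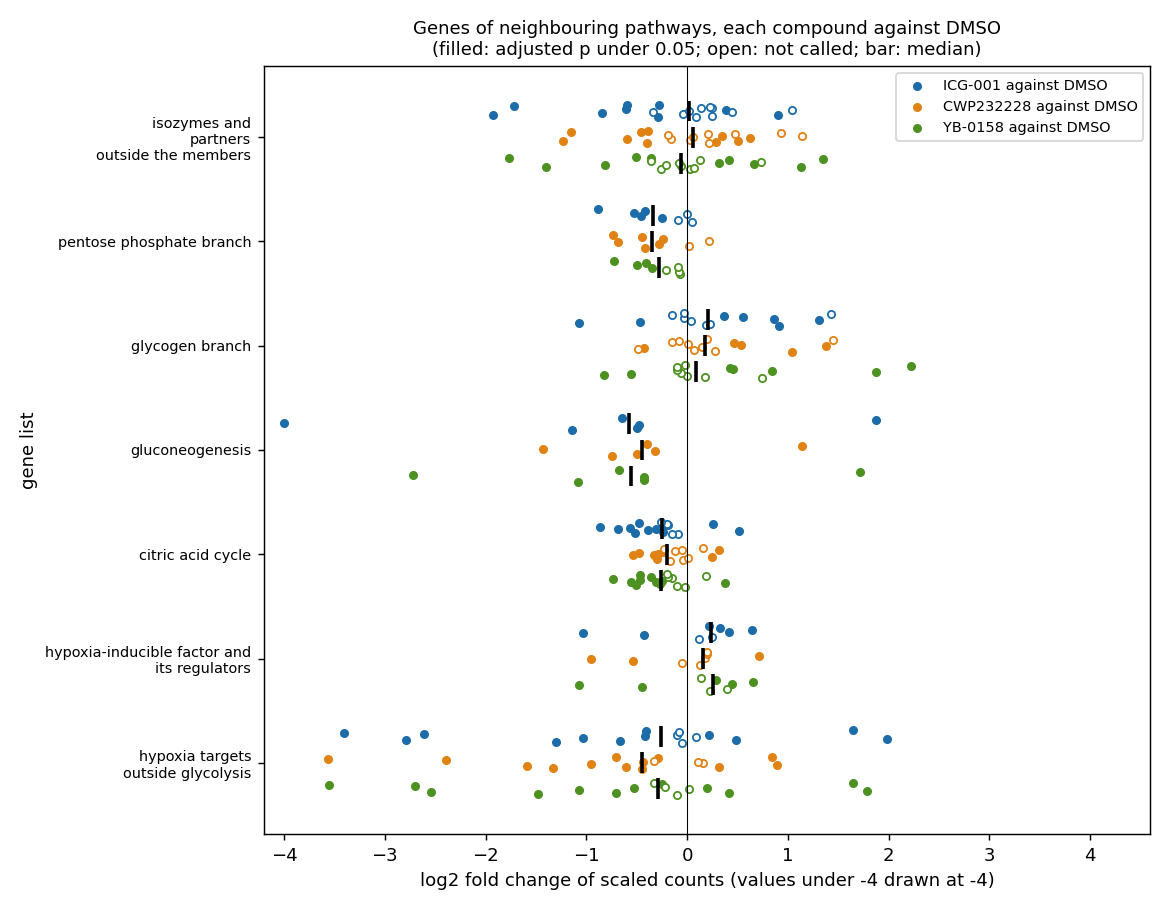
Log2 fold change of scaled counts for every tested gene of 7 neighbouring lists, with ICG-001 (blue), CWP232228 (orange) and YB-0158 (green) against DMSO, where filled points passed an adjusted p of 0.05, black bars mark the median of a list and values under -4 are drawn at -4. Gluconeogenesis has a single point right of 0 per compound (PCK2), and the hypoxia targets spread to both sides.

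Promoter windows of RefSeq (GRCh38.p14, 250 bases before to 50 after the start site) were searched for ACGTG or GCGTG, the core letters of the hypoxia response element, on both strands. They were found for 32 of the 34 members, in 63 windows. Of these members 31 (96.9%) held the core in at least 1 window, against 52.4% of 27305 genes. A gene with more windows has more chances of a match, and the 27305 genes had 35116 windows. By window the shares were 66.7% and 48.4%. The members' windows were also richer in G and C, with a median of 69% against 58.7%, whose part in these shares was not tested. CACGTG, the palindrome bound by MYC and related factors, whose letters contain ACGTG, was in a window of 7 of 32 members (21.9%) and of 8.77% of genes. A match is a run of letters and no evidence of binding.

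Below are the windows of 3 genes that fell, ALDOC, PFKFB4 and LDHA, and of HK2, which rose, shown 5′ to 3′ on the strand of the gene. They are shown as examples. The core was in a window of 31 of 32 members, so nearly any members picked would hold it, and its relation to direction was not tested. Capitals mark each match to the core on either strand. Each CACGTG is a pair of overlapping matches, counted once on each strand, so matches outnumber separate sites. The ALDOC window, chr17:28576846-28577145 on the minus strand, holds 5 matches. That of PFKFB4, chr3:48556754-48557053 on the minus strand, holds 1. The LDHA window, chr11:18394313-18394612 on the plus strand, and the HK2 window, chr2:74834920-74835219 on the plus strand, hold 6 each. For LDHA and HK2, with 2 windows each, the one shown was picked for having the most matches.
ALDOC: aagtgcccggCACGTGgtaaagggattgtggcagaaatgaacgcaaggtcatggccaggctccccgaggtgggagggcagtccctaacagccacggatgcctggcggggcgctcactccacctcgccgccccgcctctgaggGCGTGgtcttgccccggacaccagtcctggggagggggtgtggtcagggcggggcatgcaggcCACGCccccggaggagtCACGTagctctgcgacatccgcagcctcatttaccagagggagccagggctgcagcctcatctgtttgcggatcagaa
PFKFB4: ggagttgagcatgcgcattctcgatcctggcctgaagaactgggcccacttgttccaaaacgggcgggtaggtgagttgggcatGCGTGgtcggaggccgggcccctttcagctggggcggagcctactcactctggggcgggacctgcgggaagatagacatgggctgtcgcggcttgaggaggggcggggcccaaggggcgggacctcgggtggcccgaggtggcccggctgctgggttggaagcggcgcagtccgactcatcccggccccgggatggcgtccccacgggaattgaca
LDHA: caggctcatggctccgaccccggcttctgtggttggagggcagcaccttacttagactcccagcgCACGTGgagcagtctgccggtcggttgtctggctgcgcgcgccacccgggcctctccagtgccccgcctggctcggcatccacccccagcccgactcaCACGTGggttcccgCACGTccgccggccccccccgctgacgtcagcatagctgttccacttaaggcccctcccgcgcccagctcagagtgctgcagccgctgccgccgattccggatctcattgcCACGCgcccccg
HK2: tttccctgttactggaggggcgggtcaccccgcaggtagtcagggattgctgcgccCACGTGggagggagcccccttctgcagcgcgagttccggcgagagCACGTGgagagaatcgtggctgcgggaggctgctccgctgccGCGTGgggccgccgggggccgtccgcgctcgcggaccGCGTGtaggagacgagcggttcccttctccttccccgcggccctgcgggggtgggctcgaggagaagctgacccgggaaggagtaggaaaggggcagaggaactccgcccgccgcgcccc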

How the data were processed

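The series measured RNA of HT29 cells in 8 libraries, 4 groups of 2, made with an unstranded TruSeq kit per the labels' protocols. GRCh38, Salmon 1.3.0, fastp and DESeq2 appear in the submitters' processing notes, which state neither role nor sequence of use. The deposited files hold, per the file headers, Salmon's estimated counts, TPM and effective length per transcript. 3 deposited gene tables hold the authors' mean signal (normalised counts), log2 fold change, p-value and FPKM. Which transcriptome release they used is not given in the sources used here.

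Of the deposited estimated counts, those of 204677 of 228754 transcripts (89.5%) matched GENCODE release 29 by identifier without version, and the rest held 1.54% to 1.85% of reads. Counts were summed per gene and rounded. EdgeR 4.0.16 under R 4.3.3 fitted all 8 libraries with TMM scaling, filterByExpr and the robust quasi-likelihood test, with 16449 genes and 4 residual degrees of freedom. A gene was called at an adjusted p (Benjamini-Hochberg) under 0.05, and adjusted p are from this fit where no other is named. CPM are on the TMM scale. Salmon divides shared reads by a model, so paralogs, pseudogenes and overlapping genes are uncertain. Transcript usage was tested with diffSpliceDGE on 68621 transcripts. Limma 3.58.1 on FPKM and DESeq2 1.42.0 were among 20 alternative fits. The fits were first tested on simulated data. Intervals are from the model, and floors (3 counts) cover counting error only.

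Members, gene lists and tests were chosen with earlier results of these data known. All members are named, with library values for those called with at least 2 compounds or differing between compounds. From each other list, the called genes with the 2 smallest p in a comparison could be named.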

Additional observations from a re-analysis of the deposited data

How the results depend on the processing

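The median of the members stayed below 0 against DMSO in all 20 alternative fits. Calls held in each of them for 17 of 24 lower and 3 of 6 higher members with ICG-001 and for 18 of 25 and 2 of 5 with YB-0158. For CWP232228 it was 0 of 24 and 0 of 4, where 1 fit, of the 48 h libraries only, leaves this compound 1 library. With CWP232228 the falls of ALDOA, ALDOC, ENO1, GPI, LDHA, PFKFB4, PFKL, PFKM, PGAM1, PGM1, SLC16A3 and TPI1 held in 19 of 20 fits. The remaining calls with CWP232228 held in 5 to 18. Depth limits SLC2A3 and PDK3, and the summed reads of SLC2A1 and PDK3 fell short of the authors' mean, at 0.609 and 0.268 of it. The cause of the changes below was not tested. Counts of members below stand without the share of all genes called in the same fit.

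With offsets for GC content and length, with or without the replicate block, CWP232228 had 1 member higher than DMSO. CWP232228 against ICG-001 had 11 higher and 3 lower, and YB-0158 against CWP232228 2 higher and 11 lower. PDK1 turned to -0.65 with ICG-001 (-0.65 with the block) and to -0.51 with CWP232228 (-0.50 with the block), and TIGAR turned to -0.03 with CWP232228 in both fits. Effective length offsets turned PFKP to 0.03 with CWP232228 and 0.03 with YB-0158, and limma on log2(FPKM + 0.1) or log2(FPKM + 1) turned it to 0.02 with either. These 3 fits gave 2 higher members for CWP232228 against DMSO, 0 higher and 0 lower for CWP232228 against ICG-001, and 0 lower for YB-0158 against CWP232228. A fit of only the 2 groups compared gave 2 higher members with CWP232228 and 3 with YB-0158 against DMSO, 10 higher and 4 lower for CWP232228 against ICG-001, and 1 higher and 10 lower for YB-0158 against CWP232228.

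With DESeq2, CWP232228 against ICG-001 had 7 higher and 2 lower, and YB-0158 against CWP232228 1 higher. Without the low-count filter these comparisons had 5 higher and 3 lower, and 1 higher and 5 lower. The fit of the 48 h libraries only, chosen after seeing the data, leaves CWP232228 and ICG-001 1 library each, and its numbers of calls are not given.

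Libraries of equal replicate number deviated together between compounds, with correlations of 0.125 to 0.511, and not between a compound and DMSO, with -0.26 to -0.185, and no label ties a number to a shared culture or day, so the block was kept as an alternative. The replicate block gave 0 lower for CWP232228 against ICG-001, 1 lower for YB-0158 against CWP232228, and 1 member with changed transcript usage with ICG-001 and 1 with YB-0158. Crossing the numbers of DMSO in the block, also chosen after seeing the data, gave 2 higher and 2 lower for CWP232228 against ICG-001 and 1 higher for YB-0158 against CWP232228. A gene-level F test called transcript usage of 3 members with CWP232228, namely ENO1, PDHA1 and PFKM. It called ENO1, GPI and PFKM with ICG-001, and ENO1 and PFKM with YB-0158. For ENO1 the adjusted p by that test was 0.0016 with ICG-001, 0.013 with CWP232228 and 0.0014 with YB-0158. A stricter transcript filter called 1 member with YB-0158.

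Leaving out each library in turn gave 1 to 4 higher and 13 to 25 lower members with CWP232228, 4 to 6 and 21 to 25 with ICG-001, and 2 to 4 and 20 to 26 with YB-0158. CWP232228 against ICG-001 ran from 0 to 10 higher and 0 to 4 lower, YB-0158 against CWP232228 from 0 to 2 higher and 0 to 11 lower, and YB-0158 against ICG-001 stayed at 0 and 0. Transcript usage ran from 1 to 2 members with ICG-001, 0 to 2 with CWP232228 and 0 to 2 with YB-0158.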
